A study of Mus musculus with 4 samples.

Results

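The 37 genes described here copy the genome in S phase: they load and start the replicative helicase, build DNA at the fork, supply deoxynucleotides, and restore chromatin and DNA methylation behind the fork. They were taken by symbol from the deposited gene lists of a mouse single-cell RNA sequencing series, and all 37 were found among 32285 genes. Their transcripts were counted as UMIs (unique molecular identifiers, 1 for each captured molecule) in T cells sorted from the lymph nodes that drain a tumour. Every mouse carried MC38-OVA tumours, a colon carcinoma line that expresses ovalbumin. The 4 libraries cross the labelled genotype, Control or PD-L1 knockout, with the labelled treatment, Control or Doxorubicin, an anthracycline chemotherapy drug. Their labelled names are WT-CTRL and KO-CTRL without the drug, and WT-DOX and KO-DOX with it.

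The series describes the knockout as conditional in dendritic cells, so the sorted T cells are not the cells meant to lose the gene. Cd274, the gene of PD-L1, was at 67.2 CPM in WT-CTRL and 65.7 in WT-DOX, against 85.1 in KO-CTRL and 82.8 in KO-DOX, and these values check no genotype. CPM states a gene's UMIs relative to all UMIs of the cells taken, scaled to a common total. The labels give no Cre driver, age, sex, dose, time after treatment or number of mice in a library. Each group is 1 library, so no test between genotypes or treatments was run. Every interval beside a level, share or ratio is a 95% interval that covers counting error only, exact except for ratios of shares, where it is approximate. A gene was called higher or lower between libraries where the log2 ratio of CPM plus 1 reached 0.32 (a ratio of 1.25) and its mean CPM was at least 5. A gene under 5 CPM in a library can pass that minimum through the other library, which favours calling it higher there. Folds are given on that log2 scale, whereas each fold's interval belongs to the log2 ratio without the added 1.

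Before a cell divides, the MCM2-7 helicase is loaded on replication origins by the origin recognition complex with CDC6 and CDT1. It is then switched on by CDC45 and the GINS complex and DNA is copied behind it by polymerases that the PCNA clamp holds in place. Most of these genes are targets of the E2F transcription factors, which are released from the retinoblastoma protein late in G1. Resting T cells of a lymph node keep these genes low, and T cells that meet antigen on dendritic cells enter rapid division. Mki67, which encodes the proliferation antigen Ki-67, is transcribed mainly from S phase to mitosis and was used to mark cycling cells.

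The libraries held 10372 to 12959 cell barcodes, of which 97.2% to 97.8% passed as T cells (12468 of WT-CTRL, 12672 of KO-CTRL, 12153 of WT-DOX and 10080 of KO-DOX). Median depth was 3014 to 3095 UMIs per T cell. The 6 T cell markers used summed to 2978 to 3067 CPM, and markers of other cell types to 6.47 to 8.74 CPM, with Siglech at 0. In Mki67-positive cells the other-cell markers were at 4.40 to 7.29 CPM, with Ms4a1, Csf1r and Siglech among those at 0. Libraries shared 1.69% to 2.11% of the smaller library's barcodes in each pair. T cells were gated on these same T cell and other-cell markers, so the marker sums follow from the gate. None of these measures checks the genotype or treatment labels.

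Cells with at least 1 Mki67 UMI numbered 399 for WT-CTRL, 403 for KO-CTRL, 237 for WT-DOX and 390 for KO-DOX. These cells held the members' transcripts far above their share of all RNA. WT-CTRL had 48.6% of its member UMIs in them, WT-DOX had 38.7%, KO-CTRL had 52.9% and KO-DOX had 53.5%, against 11.4%, 7.81%, 12.9% and 13.6% of all UMIs. The summed level of the 37 genes was a median 7.40 times higher in Mki67-positive than in Mki67-negative cells. Mki67-positive cells were also deeper, with median depths of 8915 to 11432 UMIs against 2974 to 3069.

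The contrast between Mki67-positive and Mki67-negative cells of the same library can be tested, because 4 libraries each give both sums. With edgeR's quasi-likelihood test, library as a block and Benjamini-Hochberg adjustment over 12484 genes, 37 of 37 members were higher in Mki67-positive cells, each in 4 of 4 libraries (36.7% of all genes tested were called higher and 38.2% lower). The members spread widely around a median log2 difference of 2.96. The largest was that of Pclaf, the PCNA-associated factor, at 7.20 (SE 0.086, edgeR adjusted p = 9.78e-17). Rrm2, the small subunit of ribonucleotide reductase, followed at 6.57, then thymidine kinase Tk1 at 6.31, Mcm10 at 6.30 and the checkpoint mediator Clspn at 6.11. The smallest was that of Cdt1, the licensing factor, at 0.52 (SE 0.062, edgeR adjusted p = 3.37e-06).

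In CPM, Pclaf was 149.8 times higher in Mki67-positive than in Mki67-negative cells of WT-CTRL, 196 times higher for WT-DOX, 168 times for KO-CTRL and 103 times for KO-DOX. Between 94.2% and 96.1% of its UMIs came from Mki67-positive cells. Rrm2 was 73.2, 130.3, 103 and 93.0 times higher in the same order. Cdt1 was only 1.58, 1.50, 1.32 and 1.44 times higher, and 11.3% to 18.5% of its UMIs came from those cells. Pclaf and Rrm2 transcripts thus came almost entirely from Mki67-positive cells in every library, whereas most Cdt1 transcripts came from Mki67-negative cells. Between these ends lay Cdc6 (median ratio 33.2), thymidylate synthase Tyms (31.0), the hemimethylated DNA reader Uhrf1 (26.8), the deoxyuridine triphosphatase Dut (10.1), Rfc3 (3.28) and Mcm7 (3.22).

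**Figure D1:**
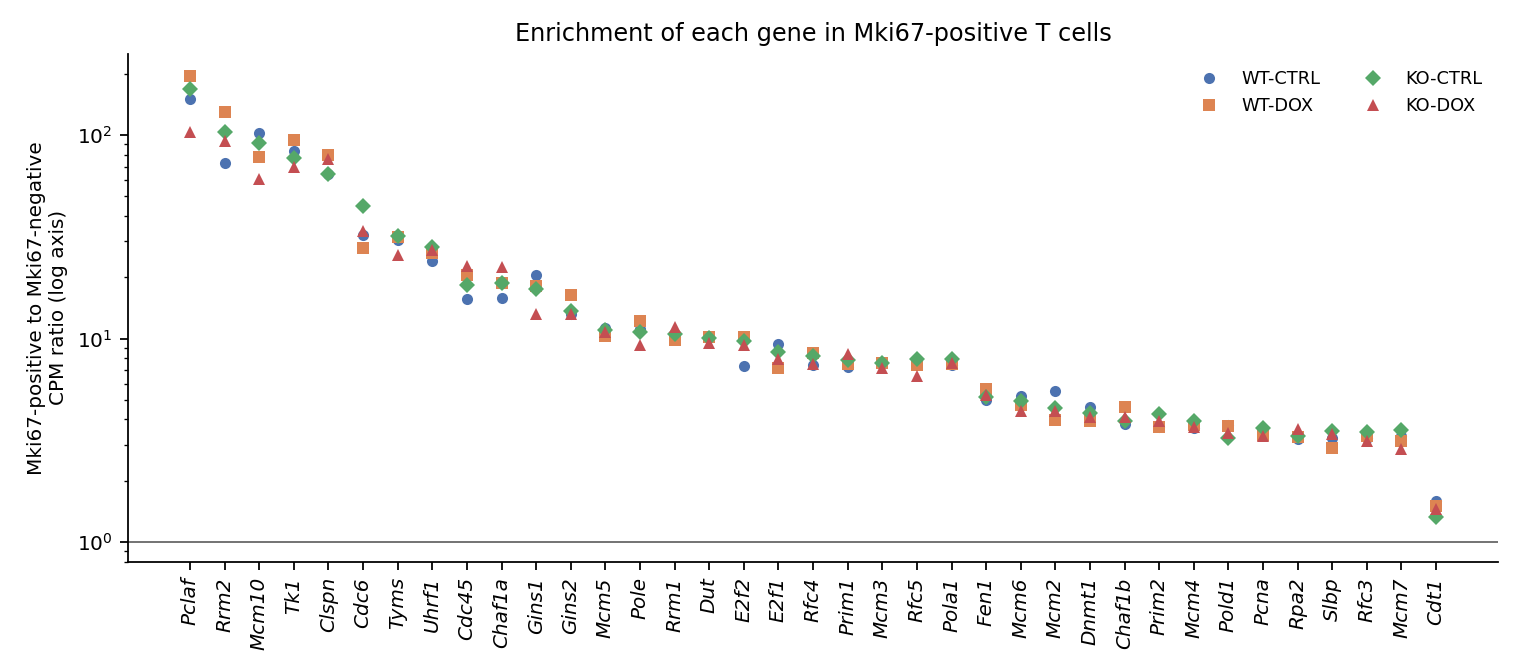
Ratio of CPM in Mki67-positive to Mki67-negative T cells for each of the 37 genes, on a log axis, with 1 point per library. Pclaf has the highest ratio in each of the 4 libraries, 103 to 196, and Cdt1 the lowest, 1.32 to 1.58.

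Promoter sequence was read for the members from RefSeq (GRCm38.p6), as windows from 250 bases before to 50 after each annotated start, and 32 of the 37 genes had one (Mcm4, Gins1, Gins2, Pole and Prim2 had none). The windows were searched on both strands for the letters of the textbook E2F site, written as TTTCCCGC, TTTCGCGC, TTTGCCGC or TTTGGCGC. A window with several or overlapping matches was counted once. At least 1 match was found in 14 of 32 members (43.75%), compared with 36.8% of 38 windowed genes on a list of other replication genes, 4.17% of 24 G2 and M phase genes, and 5.27% of all 7190 windowed genes with at least 5 CPM. Of all windows read, 2.26% held a match. The 5 windows below were chosen to show the motif in the most Mki67-restricted members that have it and in the least restricted, Cdt1. Capitals mark the matched letters, on the given strand or as their reverse complement.

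Pclaf, chr9:65890073-65890372, plus strand: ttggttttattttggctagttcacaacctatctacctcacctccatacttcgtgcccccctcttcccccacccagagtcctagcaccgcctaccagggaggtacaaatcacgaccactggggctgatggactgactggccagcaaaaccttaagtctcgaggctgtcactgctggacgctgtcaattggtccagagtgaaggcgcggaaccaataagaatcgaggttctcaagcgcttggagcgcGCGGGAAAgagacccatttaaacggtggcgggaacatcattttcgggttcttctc

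Clspn, chr4:126556730-126557029, plus strand: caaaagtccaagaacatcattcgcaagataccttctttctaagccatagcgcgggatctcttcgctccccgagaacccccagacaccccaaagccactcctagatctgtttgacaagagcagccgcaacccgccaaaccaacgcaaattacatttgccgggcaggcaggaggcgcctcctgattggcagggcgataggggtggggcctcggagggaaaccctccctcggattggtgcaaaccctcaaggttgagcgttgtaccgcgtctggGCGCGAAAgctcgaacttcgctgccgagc

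Cdc6, chr11:98907901-98908200, plus strand: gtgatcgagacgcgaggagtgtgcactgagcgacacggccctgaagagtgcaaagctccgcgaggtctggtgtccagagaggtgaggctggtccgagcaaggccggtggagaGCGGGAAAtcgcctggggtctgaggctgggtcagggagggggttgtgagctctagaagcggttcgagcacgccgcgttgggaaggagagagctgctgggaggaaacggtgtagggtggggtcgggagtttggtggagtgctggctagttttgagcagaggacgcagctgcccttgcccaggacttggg

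Uhrf1, the other of its 2 windows, chr17:56304063-56304362, plus strand: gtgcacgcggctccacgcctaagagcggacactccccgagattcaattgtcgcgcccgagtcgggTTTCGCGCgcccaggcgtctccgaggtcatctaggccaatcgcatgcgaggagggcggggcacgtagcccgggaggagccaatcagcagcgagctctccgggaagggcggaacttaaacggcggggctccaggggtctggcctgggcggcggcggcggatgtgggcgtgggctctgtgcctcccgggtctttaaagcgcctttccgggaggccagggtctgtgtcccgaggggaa

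Cdt1, chr8:122567765-122568064, plus strand: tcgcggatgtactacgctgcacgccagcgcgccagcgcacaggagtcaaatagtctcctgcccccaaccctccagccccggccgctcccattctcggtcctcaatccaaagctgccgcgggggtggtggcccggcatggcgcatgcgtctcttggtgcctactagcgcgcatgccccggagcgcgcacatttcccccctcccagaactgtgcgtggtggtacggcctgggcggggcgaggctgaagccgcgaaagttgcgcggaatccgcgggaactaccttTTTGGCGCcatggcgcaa

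The match begins 5 bases before the annotated start in Pclaf, 138 before it in Cdc6 and 185 before it in Uhrf1. In Clspn it begins 21 bases after the start and in Cdt1 32 after. The motif did not sort the members by restriction to Mki67-positive cells: the 14 with a match had a median ratio of 7.55 (range 1.47 to 159) and the 18 without one 8.04 (range 3.30 to 98.1). Rrm2, Mcm10 and Tk1 were among the 18 without these letters in the window. A match describes letters only, and binding was not measured.

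Across all T cells the 37 genes were lowest in the doxorubicin-treated control library. Their summed level was 1289 CPM (1279 to 1300) for WT-CTRL, 1125 (1115 to 1135) for WT-DOX, 1395 (1384 to 1406) for KO-CTRL and 1426 (1414 to 1438) for KO-DOX. WT-DOX was thus the low library, while the knockout libraries both lay above WT-CTRL. The log2 ratio of WT-DOX to WT-CTRL was -0.20 (-0.21 to -0.18), and that of KO-DOX to KO-CTRL 0.032 (0.015 to 0.049). KO-CTRL exceeded WT-CTRL by 0.11 (0.097 to 0.13) and KO-DOX exceeded WT-DOX by 0.34 (0.32 to 0.36). In each of these sums fewer cycling cells and less RNA per cycling cell cannot be told apart.

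Of the 37 genes, 36 had their lowest level in WT-DOX, Cdt1 being the exception, and 24 had their highest in KO-DOX, 10 in KO-CTRL, 2 in WT-CTRL and 1 in WT-DOX. The highest library exceeded the lowest by a median of 1.34 times. No share of all genes stands beside these counts, and genes as a whole leaned the same way, less strongly. In WT-DOX against WT-CTRL 56.2% of all genes tested were below 0, against 97.0% of the members tested. In KO-DOX against WT-DOX it was 41.8% and 3.03%. Between WT-DOX and WT-CTRL, 7 of the 33 members with at least 5 CPM were lower and 0 higher (3.67% of all genes tested were lower and 0.632% higher), with a median of -0.20 against -0.018 over all genes. Between KO-DOX and KO-CTRL, 0 of 35 passed in either direction (0.786% higher and 0.941% lower), and the members ran from -0.15 for Rfc3 to 0.19 for E2f1. Between KO-CTRL and WT-CTRL, 1 of 34 was higher and 0 lower (1.43% and 0.796%), with a member median of 0.10 against -0.00029. Between KO-DOX and WT-DOX, 19 of 33 were higher and 0 lower (4.45% and 1.02%), with a member median of 0.36 against 0.026. That comparison and the one between WT-DOX and WT-CTRL share the WT-DOX library.

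**Figure D2:**
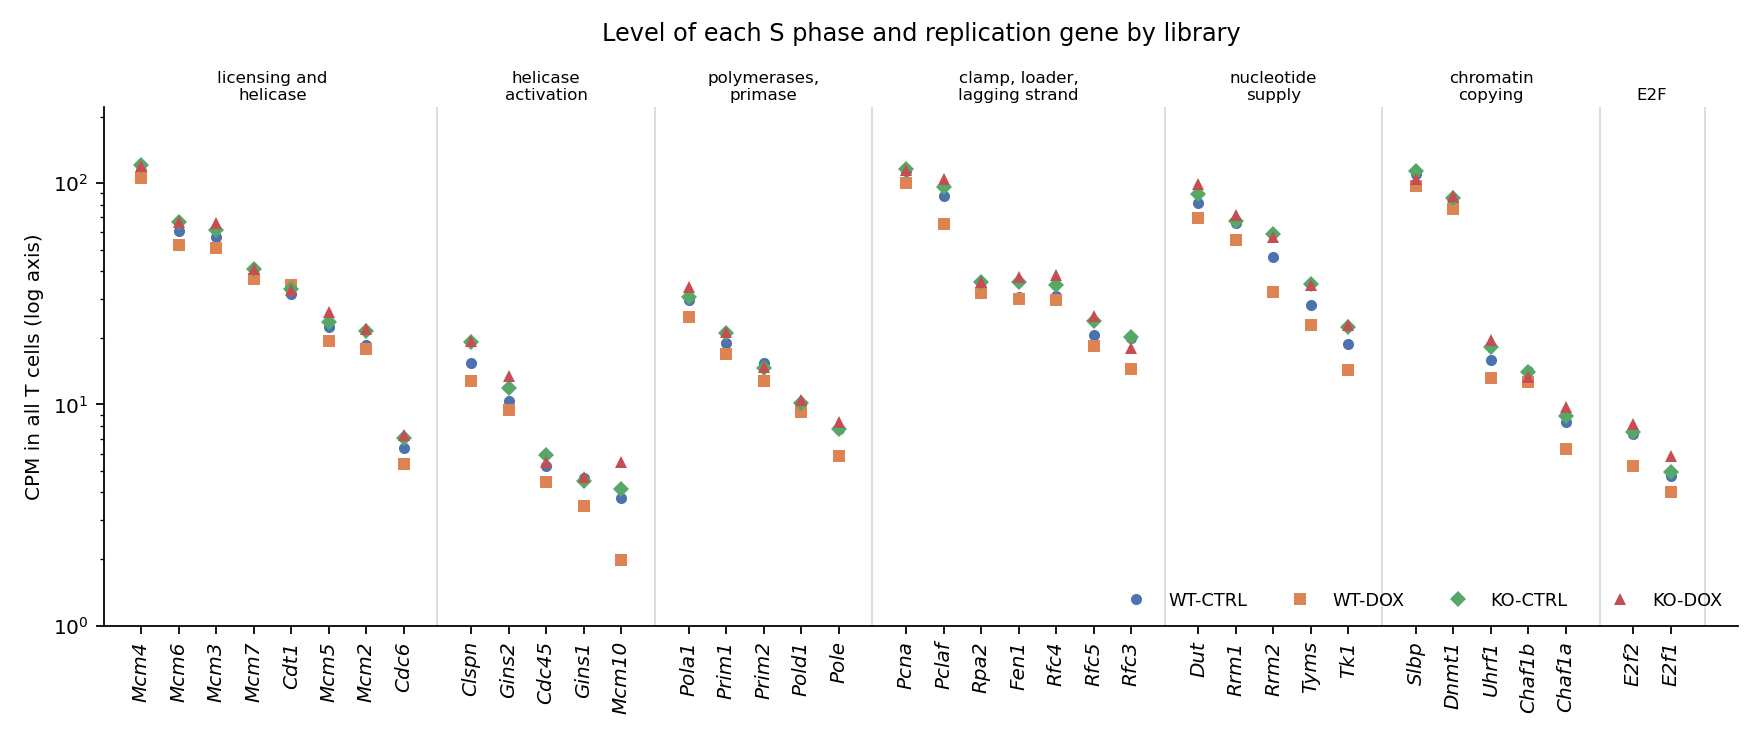
Level of each of the 37 genes in all T cells, in CPM on a log axis, grouped by role, with 1 point per library. WT-DOX is the lowest point for 36 genes and KO-DOX the highest for 24, counts that have no share of all genes beside them.

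The size of these differences depended on the deepest cells. Without cells that held both Cd4 and Cd8 UMIs or over 15000 UMIs, the WT-DOX to WT-CTRL ratio of the sum was -0.11 and 3 members were lower (2.68% of all genes), and with every cell weighted equally it was -0.097 and 4 were lower (2.72%). In the same 2 settings the KO-DOX to WT-DOX ratio was 0.14 and 0.15, with 5 and 6 members higher (2.92% and 3.6% of all genes). The KO-CTRL to WT-CTRL ratio turned to -0.0051 and -0.0039. These exclusions removed 36.3% to 42.7% of Mki67-positive cells and 2.25% to 2.87% of the others.

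Among the origin licensing and helicase genes (Mcm2 to Mcm7, Cdc6 and Cdt1), levels summed to 348 CPM for WT-CTRL, 323 for WT-DOX, 376 for KO-CTRL and 382 for KO-DOX, the order of libraries kept below. Mcm4, a helicase subunit, was at 113, 106, 121 and 120 CPM and Mcm6 at 60.8, 52.4, 67.1 and 67.0. Of the subunits, Mcm5 differed most between the doxorubicin libraries: 22.3, 19.3, 23.6 and 26.2 CPM, a fold of 0.42 (0.30 to 0.58) for KO-DOX against WT-DOX. Between these libraries Mcm3, Mcm5, Mcm6 and Cdc6 were higher, 4 of 8, and 0 of 8 passed between WT-DOX and WT-CTRL. Mcm2 was at 18.6, 17.8, 21.6 and 21.8 CPM. Cdt1, which must be destroyed once S phase starts so that origins do not fire again, went the other way: 31.5, 34.6, 33.1 and 32.9 CPM, with a fold of 0.13 (0.029 to 0.24) in WT-DOX against WT-CTRL, below the size rule.

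The genes that activate the helicase and guard the fork were at low levels, 39.5, 32.1, 45.5 and 48.5 CPM summed. Clspn, which carries the ATR checkpoint signal at stalled forks, was at 15.4, 12.7, 19.1 and 19.4 CPM, and its fold was 0.57 (0.44 to 0.77) for KO-DOX against WT-DOX and 0.29 (0.17 to 0.46) for KO-CTRL against WT-CTRL. Gins2, a subunit of the GINS complex, was at 10.4, 9.41, 11.8 and 13.4 CPM. Both were lowest in WT-DOX. Mcm10, Cdc45 and Gins1 missed the 5 CPM minimum in at least 1 comparison. Mcm10, which joins the activated helicase to polymerase, was at 3.76, 1.99, 4.16 and 5.50 CPM, and its WT-DOX level was the lowest relative to the other libraries of any member, with a highest-to-lowest ratio of 2.76.

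The polymerase and primase genes summed to 81.6, 69.5, 84.2 and 89.0 CPM. Pola1, the catalytic subunit of the polymerase that starts each strand, was at 29.7, 24.7, 30.7 and 34.0 CPM, and the primase subunit Prim1 at 19.0, 16.9, 21.0 and 21.3. Pole, the leading-strand polymerase, was at 7.74, 5.83, 7.77 and 8.33 CPM, a fold of -0.36 (-0.65 to -0.17) in WT-DOX against WT-CTRL. It was the 1 member of 5 that passed in that comparison, while Pola1 (0.45) and Pole (0.45) passed between the doxorubicin libraries. Prim2 and Pold1 passed in neither.

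The clamp, clamp loader and lagging-strand genes summed to 337, 290, 363 and 373 CPM. Pcna, the sliding clamp, was at 114, 101, 116 and 114 CPM, low only in WT-DOX. Pclaf, which binds the clamp, was at 87.9, 65.3, 96.3 and 104 CPM, a fold of -0.42 (-0.50 to -0.36) in WT-DOX against WT-CTRL and 0.66 (0.60 to 0.74) in KO-DOX against WT-DOX. Rfc3, a clamp loader subunit, was at 19.9, 14.5, 20.1 and 18.0 CPM, a fold of -0.44 (-0.61 to -0.31) in WT-DOX against WT-CTRL. Between KO-DOX and KO-CTRL it had the lowest fold of the members tested. The flap endonuclease Fen1, which trims Okazaki fragments, was at 30.7, 30.1, 35.7 and 37.7 CPM, nearly level within the control genotype. Between the doxorubicin libraries Pclaf, Rfc4 and Rfc5 were higher, 3 of 7.

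All 5 nucleotide supply genes passed as higher in KO-DOX than in WT-DOX. They summed to 241, 195, 273 and 285 CPM. Rrm2 was at 46.3, 32.2, 59.2 and 57.1 CPM, a fold of -0.51 (-0.62 to -0.42) in WT-DOX against WT-CTRL, 0.35 (0.27 to 0.44) in KO-CTRL against WT-CTRL and 0.81 (0.73 to 0.92) in KO-DOX against WT-DOX. Its WT-DOX interval lay below and its knockout intervals above the WT-CTRL level. Rrm1, the large subunit of the same enzyme, was at 66.0, 55.5, 67.3 and 71.5 CPM, and Dut, which keeps uracil out of DNA, at 81.7, 70.0, 89.0 and 98.7. Tk1, the salvage kinase, was at 18.7, 14.3, 22.3 and 22.9 CPM, a fold of -0.36 (-0.54 to -0.23) in WT-DOX against WT-CTRL. Tyms, which makes thymidylate, was at 28.2, 22.9, 35.2 and 34.6 CPM, a fold of 0.58 (0.48 to 0.72) in KO-DOX against WT-DOX.

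The chromatin-copying genes summed to 230, 206, 241 and 234 CPM, the most even of the groups. Slbp, which binds histone mRNA stem-loops, was at 110, 96.9, 114 and 104 CPM, lower in each doxorubicin library than in its own control. Its fold in KO-DOX against KO-CTRL was -0.13 (-0.19 to -0.072). Dnmt1, the maintenance methyltransferase, was at 81.5, 76.8, 85.6 and 87.2 CPM. Uhrf1, which brings Dnmt1 to newly copied DNA, was at 15.9, 13.2, 18.1 and 19.5 CPM, and the histone chaperone subunit Chaf1a at 8.31, 6.30, 8.86 and 9.74. Chaf1a was lower in WT-DOX than in WT-CTRL by the size rule, at -0.35 (-0.63 to -0.17), and both genes were higher in KO-DOX than in WT-DOX. Of the E2F factors, E2f2 was at 7.32, 5.26, 7.48 and 8.19 CPM, a fold of -0.41 (-0.73 to -0.23) in WT-DOX against WT-CTRL, and E2f1 at 4.73, 4.03, 4.97 and 5.82 CPM.

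**Figure D3:**
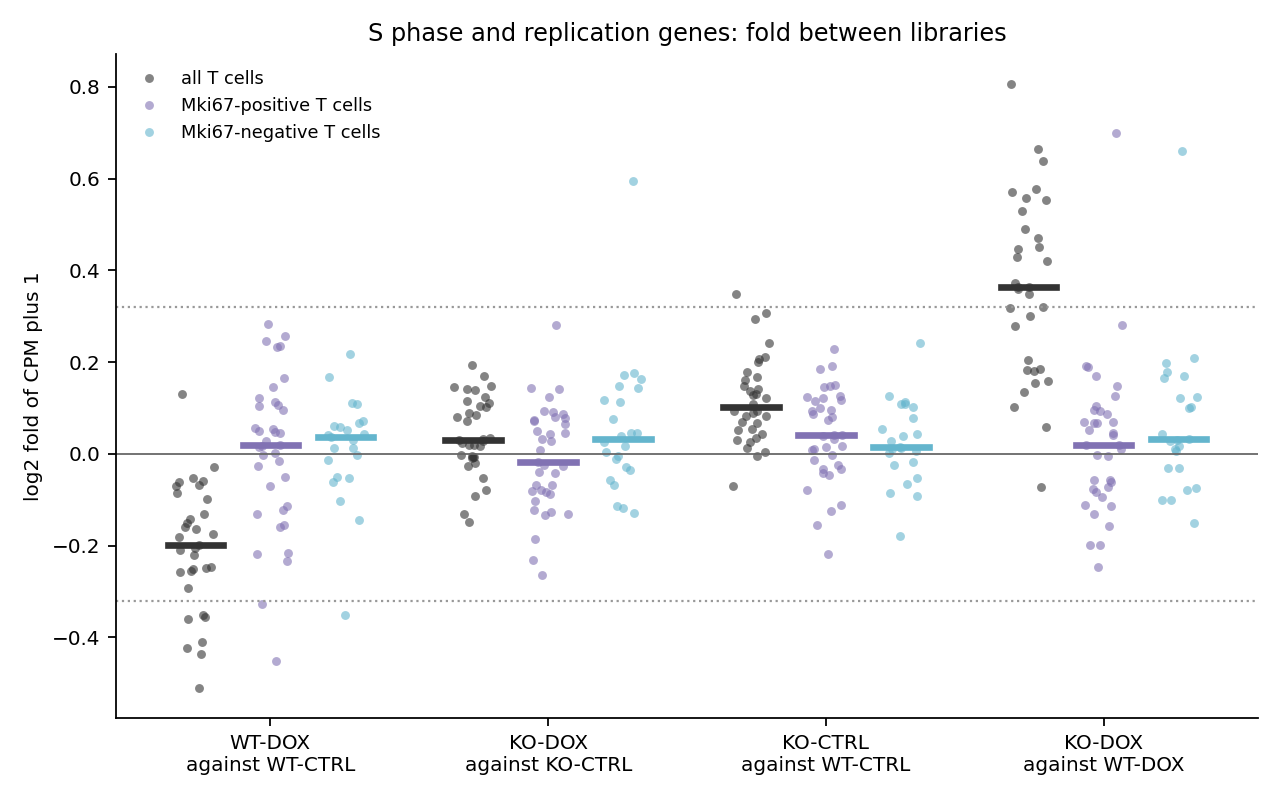
Log2 fold of CPM plus 1 for the members in each of the 4 comparisons between libraries, in all T cells, Mki67-positive and Mki67-negative T cells. Points are genes with a mean of at least 5 CPM, horizontal bars are medians and dotted lines mark 0.32 in each direction; the medians of -0.20 and 0.36 in all T cells contrast with medians near 0 in the other 2 populations.

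The share of T cells with Mki67 UMIs was also lowest in WT-DOX and highest in KO-DOX, while the untreated libraries had nearly the same share. It was 3.20% (2.90% to 3.52%) for WT-CTRL, 1.95% (1.71% to 2.21%) for WT-DOX, 3.18% (2.88% to 3.50%) for KO-CTRL and 3.87% (3.50% to 4.26%) for KO-DOX. The WT-DOX share was 0.609 times that of WT-CTRL (0.520 to 0.714), whereas the KO-DOX share was 1.22 times that of KO-CTRL (1.06 to 1.39). The knockout and control genotypes without drug had a ratio of 0.994 (0.867 to 1.14), and with drug 1.98 (1.69 to 2.33). With each cell thinned to 2000 UMIs the shares were 2.19%, 1.27%, 2.07% and 2.59%, after 1772 to 2341 shallower cells per library were left out.

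Part of this share can come from free RNA, which was not measured. The same share was taken in T cells without UMIs of Cd44, an adhesion receptor that is high on activated and memory T cells. It was 1.73%, 0.732%, 1.52% and 2.05% there (median depths 2937 to 3014 UMIs), against 16.6%, 12.8%, 17.4% and 17.7% in cells with Cd44 UMIs (3991 to 4509 UMIs). WT-DOX was lowest in both classes. The cells with Cd44 held Mki67 many times more often in each library. Most T cells held no Cd44 UMI, 8911 to 11348 per library against 1169 to 1324 with it. The class without Cd44 can therefore hold cycling cells whose Cd44 was not captured.

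**Figure D4:**
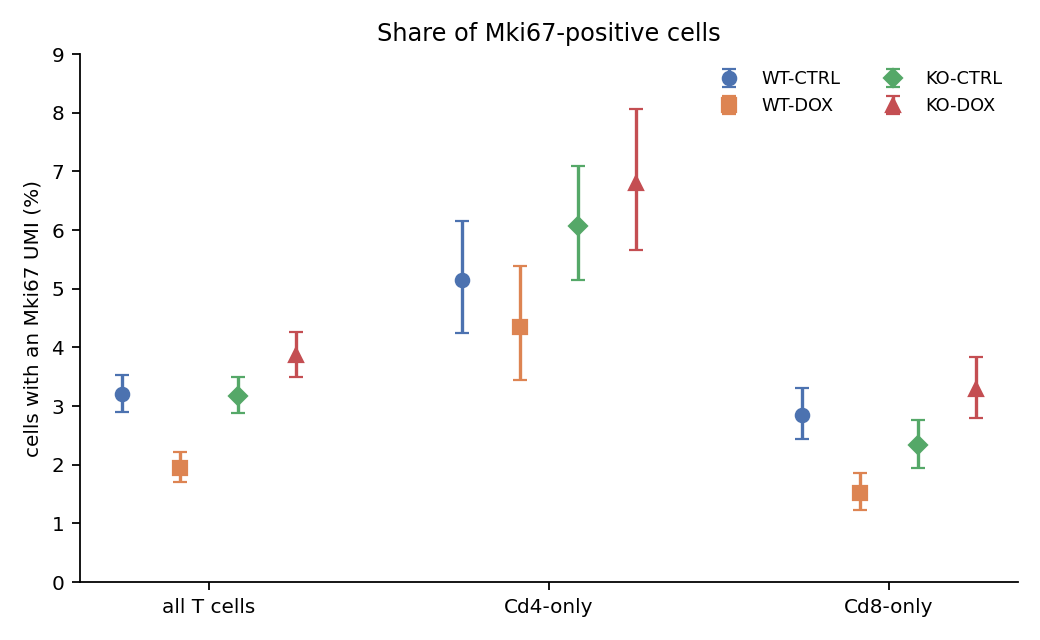
Percent of T cells with at least 1 Mki67 UMI in each library, for all T cells and for Cd4-only and Cd8-only cells, with exact 95% intervals as bars. In all T cells and in Cd8-only cells the WT-DOX interval lies below those of the other 3 libraries.

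Within Mki67-positive cells the 4 libraries were close. The summed member level was 5497, 5574, 5706 and 5605 CPM, with log2 ratios of 0.020, -0.026, 0.054 and 0.0081 for the 4 comparisons in the order given above. WT-DOX, the lowest library in all T cells, was thus not the lowest here. It was the lowest library for 10 genes and the highest for 11. The sum of WT-DOX against WT-CTRL turned to -0.18 without the possible doublets and to -0.028 with at least 2 Mki67 UMIs required, so its sign depended on which cells were taken.

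All 37 genes reached 5 CPM in these cells. Between WT-DOX and WT-CTRL, 2 were lower and 0 higher (10.4% of genes tested were lower and 8.64% higher). Between KO-DOX and KO-CTRL it was 0 and 0 (6.77% and 5.3%), between KO-CTRL and WT-CTRL 0 and 0 (7.52% and 6.09%), and between KO-DOX and WT-DOX 1 higher and 0 lower (8.46% higher and 9.68% lower). These member shares lie at or below the background. Without the possible doublets 13 members were lower in WT-DOX than in WT-CTRL, where 20.1% of all genes were, and 8 higher in KO-DOX than in WT-DOX, where 20.8% were.

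The 2 lower genes were Mcm10, at 30.7, 22.2, 29.9 and 36.6 CPM with a fold of -0.45 (-0.89 to -0.059), and Rfc3, at 51.3, 40.7, 52.8 and 43.8 CPM with a fold of -0.33 (-0.64 to -0.029). Mcm10 was also the gene higher in KO-DOX than in WT-DOX, at 0.70 (0.33 to 1.14). In the licensing group Mcm4 was at 315, 325, 343 and 325 CPM and Mcm3 at 247, 256, 253 and 258, nearly the same in each library. Cdt1 was at 46.8, 50.1, 42.0 and 44.8 CPM, Mcm7 at 101, 99.6, 109.6 and 93.2, and Mcm2 at 67.7, 57.4, 67.5 and 65.6. None of these orders matched the order in all T cells.

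Some genes that were low in WT-DOX over all T cells were above their WT-CTRL level among cycling cells, but under the size rule. Clspn was at 120.5, 142, 134 and 131 CPM, a fold of 0.24 (0.062 to 0.41) for WT-DOX against WT-CTRL, and Gins2 at 57.4, 70.1, 61.1 and 66.6, a fold of 0.28 (0.034 to 0.54). Fen1 was at 105, 124.5, 120.0 and 126 CPM, again lowest in WT-CTRL. Pclaf was at 732.5, 789, 716 and 720.4 CPM and Uhrf1 at 105, 117, 113 and 116. Nucleotide supply differed little: Rrm2 was at 367, 378.5, 430.1 and 393 CPM, Dut at 408, 414, 413 and 434, Tyms at 197, 213, 224 and 204.5, and Tk1 at 150.0, 163, 158.5 and 154. Rrm2 was highest in KO-CTRL, with a fold of 0.23 (0.14 to 0.32) against WT-CTRL that stayed under the size rule. By lineage, the folds of WT-DOX against WT-CTRL were 0.72 for Clspn and 0.29 for Gins2 in Mki67-positive Cd4-only cells. In Mki67-positive Cd8-only cells they were -0.073 and 0.011.

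Of the remaining groups within Mki67-positive cells, Pola1 was at 127, 123, 129 and 136 CPM and Prim1 at 80.6, 83.8, 87.5 and 89.4. Dnmt1 was at 265, 245, 257.5 and 253 CPM and Chaf1b at 40.5, 45.5, 40.1 and 38.2. E2f1 was at 22.7, 19.4, 21.5 and 23.8 CPM and E2f2 at 31.2, 31.3, 34.2 and 35.8. These 6 genes differed by less than the size rule in all 4 comparisons.

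When each library was reweighted to 1 common share of Mki67-positive cells (3.05%), the summed level over all T cells no longer followed the observed order. The log2 ratio became 0.059 for WT-DOX against WT-CTRL, -0.079 for KO-DOX against KO-CTRL and -0.023 for KO-DOX against WT-DOX, with 1 member lower in the first and 0 higher in the last. The reweighted counts have no share of all genes beside them. In Mki67-negative cells the sums were 747.5, 748.6, 754.5 and 767.7 CPM, a few percent apart at most. In Mki67-negative cells Rfc3 was lower in WT-DOX than in WT-CTRL, 1 of 23 members tested and 0 higher (2.28% lower, 0.654% higher). Pclaf was higher in KO-DOX than in KO-CTRL, 6.96 against 4.27 CPM, 1 of 24 and 0 lower (1% and 1%). It was also higher in KO-DOX than in WT-DOX, where it was at 4.04, again 1 of 24 and 0 lower (2.2% and 0.688%). In both comparisons Pclaf reached the mean of 5 CPM only through its KO-DOX level. Between KO-CTRL and WT-CTRL 0 of 23 passed (1.33% higher, 0.811% lower).

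The treated library was also set against the untreated one in both genotypes, comparisons that share no library. Over all T cells the counting interval lay below 0 in both for Rfc3 and Slbp, 2 of 37, close to the 5.09% of all genes that did so. In Mki67-positive cells it did for Mcm6, Pcna, Rfc3 and Slbp, 4 of 37, against 1.35% of all genes, and for 0 of 37 it lay above 0 in both (1.27% of all genes). Slbp stayed under the size rule in each: 283, 243.5, 302 and 266 CPM in Mki67-positive cells, with folds of -0.22 (-0.34 to -0.093) and -0.19 (-0.29 to -0.083). Pcna was at 312, 285, 314 and 289 CPM with folds of -0.13 and -0.12, and Mcm6 at 214, 192, 220 and 202 with folds of -0.16 and -0.13. Rfc3 had the largest, -0.33 and -0.26 (-0.52 to -0.015). In Mki67-negative cells, and in Mki67-positive Cd4-only or Cd8-only cells, the interval lay below 0 in both for 0 members. No share of all genes is given for those classes.

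In Mki67-negative cells Rfc3 was also lowest in WT-DOX. It was at 15.9, 12.2, 15.3 and 14.0 CPM, with folds of -0.35 and -0.12, the latter with an interval of -0.31 to 0.052 that includes 0. These differences are between single libraries, and their size against the spread between mice was not tested.

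Among Cd4-only and Cd8-only cells (UMIs of 1 coreceptor and none of the other), the low level in WT-DOX was seen in the Cd8 lineage. Cd8-only cells had summed member levels of 1223, 1003, 1315 and 1394 CPM, a log2 ratio of -0.29 (-0.31 to -0.26) for WT-DOX against WT-CTRL, 0.085 (0.061 to 0.11) within the knockout and 0.48 (0.45 to 0.50) between the doxorubicin libraries. Cd4-only cells had 1688, 1670, 1879 and 1821 CPM, and ratios of -0.015, -0.045 and 0.12 for the same comparisons. The sign of the first turned without the gate on markers (0.044), and that of the knockout ratio turned without possible doublets (0.033) or with every cell weighted equally (0.044). Whether the lineages differ in this was not tested, having 1 library per group. Without possible doublets the Cd8-only ratio of WT-DOX to WT-CTRL was -0.16, and with every cell weighted equally -0.14.

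In Cd8-only cells 13 of 32 members with at least 5 CPM were lower in WT-DOX than in WT-CTRL and 0 higher (4.67% and 0.991% of genes tested). Rrm2 was at 43.4, 21.5, 53.2 and 55.9 CPM, a fold of -0.98 (-1.17 to -0.86). Clspn was at 15.3, 9.17, 17.4 and 19.1 CPM (-0.68), Tk1 at 17.9, 10.9, 19.1 and 21.6 (-0.66), Tyms at 27.1, 18.0, 31.5 and 30.7 (-0.56) and Pclaf at 93.5, 63.7, 103 and 109 (-0.55). In each of these genes WT-DOX was the lowest library and both knockout libraries were above WT-CTRL. Between the doxorubicin libraries 24 of 34 were higher and 0 lower (4.41% and 1.77%). Of these, Cdc6, Chaf1a, E2f1 and E2f2 were at 4.01, 4.82, 4.39 and 4.31 CPM in WT-DOX. They passed the 5 CPM minimum only through KO-DOX. Among the 13 lower in WT-DOX than in WT-CTRL, Chaf1a and E2f2 passed it only through WT-CTRL. Chaf1a alone, of 35, was higher in KO-DOX than in KO-CTRL, at 9.61 against 6.90 CPM, and 0 were lower (1.11% and 1.62%). Cdc6 alone, of 34, was higher in KO-CTRL than in WT-CTRL, at 6.58 against 4.88 CPM, and 0 were lower (1.87% and 1.53%). Its WT-CTRL level was under 5 CPM, so it passed the minimum only through KO-CTRL.

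In Cd4-only cells 2 of 37 members were higher in WT-DOX than in WT-CTRL (Cdc45 and Clspn) and 1 lower, Gins1 (4.8% higher and 5.48% lower over all genes). Gins1 was at 7.01 CPM in WT-CTRL and 4.67 in WT-DOX, so it passed the 5 CPM minimum only through WT-CTRL. Clspn was at 19.6, 27.9, 29.7 and 30.2 CPM there, lowest in WT-CTRL. Between KO-CTRL and WT-CTRL 7 of 37 were higher and 0 lower (3.87% and 3.2%), among them Clspn at 0.58 (0.33 to 0.88), Tk1 at 0.52 (0.30 to 0.77) and Rrm2 at 0.46 (0.32 to 0.62). Between KO-DOX and KO-CTRL 1 was higher and 2 lower (5.22% and 3.09%), and between KO-DOX and WT-DOX 5 of 36 higher and 0 lower (8.13% and 5.39%). Gins1, lower in the first at 4.04 CPM in KO-DOX, passed the minimum only through KO-CTRL. Mcm10, higher in the second and at 4.96 CPM in WT-DOX, passed only through KO-DOX. The Cd4-only sum of KO-CTRL against WT-CTRL, 0.15, was 0.062 with every cell weighted equally.

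The Mki67 share was also lowest in WT-DOX in each lineage. In Cd8-only cells 164, 91, 130 and 155 cells held Mki67, which is 2.84%, 1.52%, 2.33% and 3.29%, a ratio of 0.534 (0.414 to 0.688) for WT-DOX against WT-CTRL and 1.41 (1.12 to 1.78) for KO-DOX against KO-CTRL. In Cd4-only cells 112, 79, 148 and 120 did, or 5.14%, 4.34%, 6.07% and 6.80%, with ratios of 0.844 (0.637 to 1.12) and 1.12 (0.887 to 1.41). Both Cd4-only intervals include 1. Between 3294 and 4300 T cells per library had UMIs of neither coreceptor. These can include Cd4 cells whose Cd4 was not captured, so the Cd4-only share need not hold for all Cd4 cells.

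Set against each other within libraries, Cd4-only cells had more replication transcripts than Cd8-only cells. The Cd4-only class, 1766 to 2439 cells per library, leaves out Cd4 cells whose Cd4 was not captured. Its Mki67-positive cells had median depths of 9791.5 to 12193 UMIs, against 2994 to 3188.5 over the class. A deeper cell is likelier to show a Cd4 UMI, and how far this gate shapes the contrast was not tested. With edgeR's quasi-likelihood test, library as a block and Benjamini-Hochberg adjustment, 28 of 37 members were higher in Cd4-only cells and 1, Cdt1, was lower (26.1% and 25.4% of genes tested). Without TMM scaling, a setting added after the data were seen, 35 were higher and 0 lower (48.6% and 11.7%), and the median of all genes lay 0.18 higher. Cdc6, the helicase loader, differed most, at 0.87 (SE 0.12, edgeR adjusted p = 2.16e-05, higher in 4 of 4 libraries). It was at 10.5 against 4.88 CPM in WT-CTRL, 11.1 against 4.01 in WT-DOX, 11.6 against 6.58 in KO-CTRL and 11.8 against 6.25 in KO-DOX. Rrm2 was at 66.7 against 43.4, 79.4 against 21.5, 92.2 against 53.2 and 88.0 against 55.9 CPM, so its gap was widest in WT-DOX. Cd4-only cells also held Mki67 more often in each library.

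The same contrast was made among cycling cells. In Mki67-positive cells 0 of 37 members were higher in Cd4-only than in Cd8-only cells and 6 lower by edgeR (12% higher and 11.9% lower over all genes; at an unadjusted p under 0.05, 10 members passed). The 6 are close to the background share. Pclaf was the furthest, at -0.67 (SE 0.087, edgeR adjusted p = 2.48e-05). Its levels were 629.5 against 884 CPM in WT-CTRL, 654 against 999.5 in WT-DOX, 586 against 864 in KO-CTRL and 640 against 805 in KO-DOX, lower in Cd4-only cells in 4 of 4 libraries. The others were the single-stranded DNA binder Rpa2 at -0.44 (edgeR adjusted p = 0.0044), Uhrf1 at -0.41 (0.016), Rfc3 at -0.40 (0.0454), Dut at -0.39 (0.00298) and Gins2 at -0.36 (0.0279).

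Only Pclaf kept its call without TMM scaling, at -0.50 (SE 0.075, edgeR adjusted p = 0.000117). In that setting the median of all genes lay 0.17 higher, and Mcm6 at 0.35 and Fen1 at 0.27 were called higher in Cd4-only cells (22.4% higher and 6.19% lower over all genes). Of the 37 members, 4 lay above 0 with TMM and 19 without, so the sign of some depended on the scale. Rpa2 (-0.28), Uhrf1 (-0.24), Rfc3 (-0.24), Dut (-0.22) and Gins2 (-0.19) lay below 0 without TMM as well, uncalled. With DESeq2 3 members were lower. Without WT-DOX 10 were, without WT-CTRL 3, without KO-CTRL 2 and without KO-DOX 3. The DESeq2 and leave-out counts have no share of all genes beside them.

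**Figure D5:**
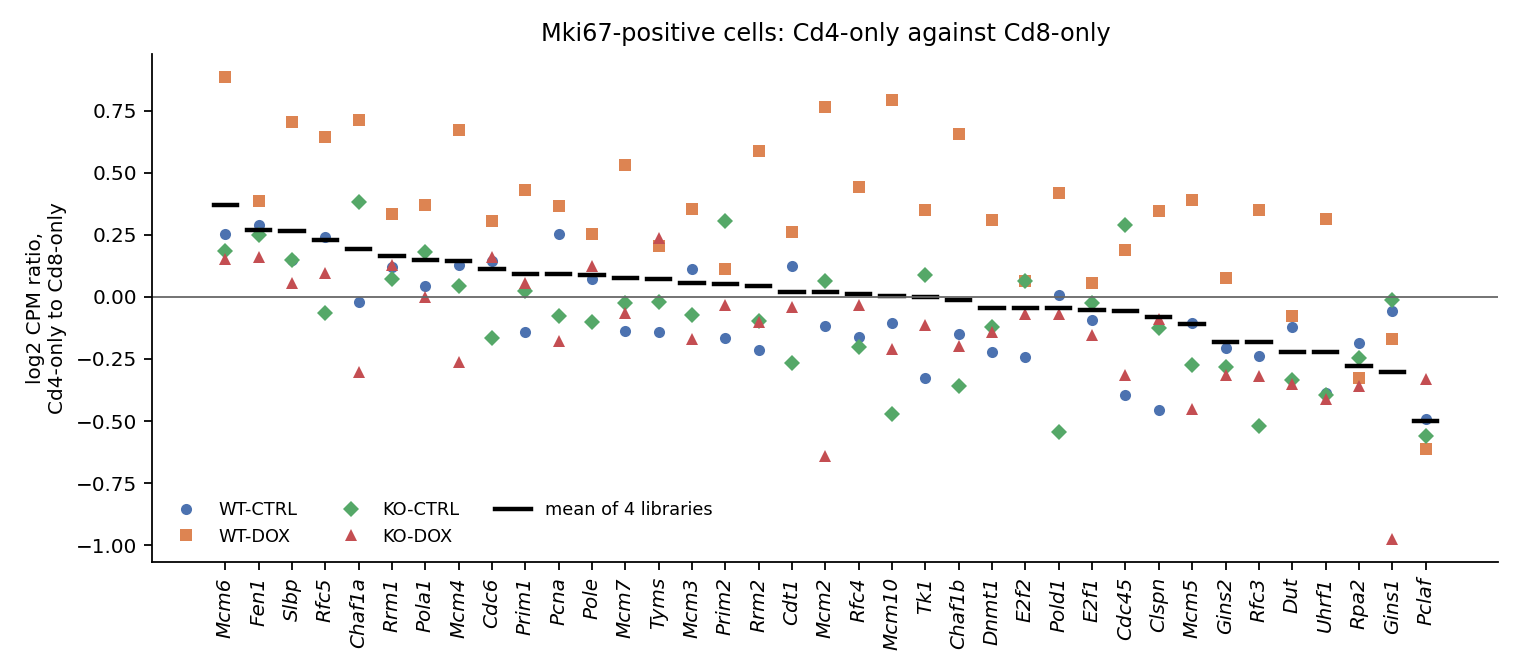
Log2 ratio of CPM, Cd4-only over Cd8-only, within Mki67-positive T cells, for each of the 37 genes with library totals as the scale. Points are libraries and bars the mean of the 4 libraries; Pclaf is below 0 in all 4, and WT-DOX lies above the other libraries for most genes.

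WT-DOX had the reverse order of summed levels to the other libraries in this contrast. Its Mki67-positive Cd4-only cells had a summed member level of 6167 CPM and its Cd8-only cells 5226, whereas the order was 5409 and 5765 in WT-CTRL, 5469 and 5943 in KO-CTRL, and 5326 and 5859 in KO-DOX. In Mki67-positive Cd4-only cells 10 members were higher in WT-DOX than in WT-CTRL and 0 lower (21% and 16.7%). In Mki67-positive Cd8-only cells 0 were higher and 8 lower (14% and 25.1%). These counts rest on 79 and 91 cells in WT-DOX. In the same Cd4-only cells 2 members were higher and 2 lower in KO-DOX than in KO-CTRL (15.6% and 13.2%), 3 higher and 2 lower in KO-CTRL than in WT-CTRL (13.7% and 14.6%), and 0 higher and 13 lower in KO-DOX than in WT-DOX (16% and 20%). In the Cd8-only cells the counts were 2 and 1 (11% and 11.8%), 1 and 0 (12.3% and 15.9%), and 9 and 0 (23.6% and 16.2%). Over all genes a large share passed in each of these small classes. The counts of 10, 8, 13 and 9 are 27.0%, 21.6%, 35.1% and 24.3% of the members, and the 8 and 9 are close to the background. Without possible doublets the Mki67-positive Cd4-only sum of KO-DOX against WT-DOX turned from -0.21 to 0.17. The Mki67-positive Cd8-only sum of the same comparison turned from above 0 to slightly below it.

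The balance between replication and mitotic transcripts in cycling cells was nearly the same in the 4 libraries. For each UMI of 28 G2 and M phase genes, Mki67-positive cells held 1.07 (1.05 to 1.09), 1.11 (1.08 to 1.13), 1.12 (1.10 to 1.14) and 1.10 (1.09 to 1.12) member UMIs. Between 61.6% and 62.5% of the cells held more member UMIs than G2 and M phase UMIs. By lineage the ratio varied more, 1.05, 1.20, 1.12 and 0.881 in Cd4-only and 1.02, 0.911, 1.13 and 1.20 in Cd8-only cells. WT-DOX was highest in Cd4-only and lowest in Cd8-only cells.

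The other genes of the cell cycle were given as fixed lists. Of 46 other replication genes, 44 were tested between WT-DOX and WT-CTRL, of which 4 were lower and 0 higher (3.67% and 0.632% of all genes). The 4 were E2f8, an atypical repressor E2F (-0.74), cyclin E2 Ccne2 (-0.60), E2f3 (-0.37) and the chromatin remodeller Hells (-0.32). E2f8 was at 6.66, 3.58, 7.59 and 6.94 CPM and Ccne2 at 9.39, 5.88, 10.9 and 8.82, lowest in WT-DOX. E2f8 was under 5 CPM in WT-DOX, so it passed the minimum only through WT-CTRL. Between the doxorubicin libraries 8 were higher (4.45% of all genes), between KO-CTRL and WT-CTRL 1 (Ccne1, 0.33, against 1.43% of all genes), and between KO-DOX and KO-CTRL 0 (0.786%).

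The G2 and M phase genes differed more. Of 28, 22 were lower in WT-DOX than in WT-CTRL (3.67% of all genes) and 27 higher in KO-DOX than in WT-DOX (4.45%). In the other comparisons 0 passed, where 0.786% to 1.43% of all genes did in each direction. Their medians were -0.58, 0.051, 0.15 and 0.73 in the order used above, against -0.20, 0.031, 0.10 and 0.36 for the members. The kinesin gene Cenpe was at 24.4, 14.2, 25.2 and 26.2 CPM and the spindle factor Tpx2 at 29.3, 18.8, 32.7 and 36.4. These genes were more restricted to Mki67-positive cells than the members, with a median log2 difference of 6.46 by edgeR against 2.96.

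Counting genes per cell gave the same order as the levels. With each cell thinned to 2000 UMIs, cells with at least 5 of the 37 members made up 3.14%, 2.50%, 3.48% and 3.78% of T cells, or 325, 250, 360 and 314 cells. The ratio was 0.798 (0.678 to 0.938) for WT-DOX against WT-CTRL, 1.08 (0.935 to 1.26) within the knockout and 1.51 (1.28 to 1.78) between the doxorubicin libraries. Unthinned, the shares were 9.66%, 8.66%, 9.35% and 9.85%. In Mki67-negative cells the thinned share was 1.31%, 1.31%, 1.46% and 1.41%, with no order by treatment. In Mki67-positive cells it was 56.2%, 55.5%, 57.5% and 56.9%, nearly the same in each library. Not all such cells held Mki67: of those with at least 5 members 131, 128, 145 and 112 had no Mki67 UMI. Cells just inside and outside the limit numbered 88, 83, 108 and 78 at 5 members, and 308, 297, 322 and 265 at 4.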

How the data were processed

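Single-cell RNA sequencing of sorted lymph node T cells was deposited as UMI counts per gene and barcode for 4 libraries, made with a droplet 5' kit per the labels' protocols. Reads were mapped to mm10 (submitters' processing notes), while the sources used here name neither aligner nor cell caller. The deposited counts were whole numbers, with 37754389 to 47081849 UMIs per library, and no barcode held fewer than 500. Counts on overlapping or near-identical genes could not be separated.

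Barcodes were kept with at least 300 genes, at most 10% mitochondrial UMIs, at least 1 UMI of a T cell marker and at most 1 UMI of the other-cell markers. No doublet caller was used: an alternative removes T cells with both Cd4 and Cd8 UMIs or over 15000 UMIs. Counts were summed over cells and divided by library totals (CPM). Intervals are exact Poisson for levels, Clopper-Pearson for shares and conditional binomial for ratios of counts. Ratios of shares of cells have an approximate log-normal interval. All are at 95% and cover counting error only. Without replicates, the 4 comparisons between libraries carry no p-value.

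The 3 contrasts within libraries used edgeR 4.0.16 (TMM, quasi-likelihood, library as a block, Benjamini-Hochberg threshold 0.05), checked on simulated data, with DESeq2 1.42.0 as an alternative (R 4.3.3, Python 3.11.15, matplotlib 3.10.9, pandas 2.3.3, scipy 1.17.1, numpy 2.4.6). The library blocks pair the populations by origin, since each pair of sums comes from the same library, and these p-values measure the spread between 4 libraries that differ in genotype and treatment.

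In each role group the genes named were the pair highest in level and those with the largest folds past the size rule, and a few others named in the text were chosen after their values were seen. The members and lists were chosen with earlier results of these data known.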

Additional observations from a re-analysis of the deposited data

Results flagged for a closer look

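Values below are opposite in direction between the genotypes, WT-DOX against WT-CTRL first and KO-DOX against KO-CTRL after it, as log2 ratios whose counting intervals exclude 0 on opposite sides. With 1 library per group the difference between the genotypes was not tested. No share of all genes meeting this rule is given, so whether the members stand out from other genes was not tested either. In all T cells this held for the summed level (-0.20 and 0.032), Mcm3 (-0.16 and 0.11), Mcm5 (-0.21 and 0.15), Mcm10 (-0.92 and 0.40), Pola1 (-0.27 and 0.15), Pclaf (-0.43 and 0.11), Rrm1 (-0.25 and 0.086) and Dut (-0.22 and 0.15). The sum of KO-DOX against KO-CTRL turned to -0.0043 without the gate on markers, where the directions were no longer opposite. Mcm10 had a mean below 5 CPM in both genotypes.

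In Cd8-only cells it held for the summed level (-0.29 and 0.085), Mcm3 (-0.20 and 0.12), Mcm4 (-0.21 and 0.11), Mcm10 (-1.35 and 0.42), Pola1 (-0.47 and 0.24), Dut (-0.30 and 0.19), Uhrf1 (-0.53 and 0.21) and Chaf1a (-0.58 and 0.48). In Mki67-positive cells it held by lineage for Mcm4 in Cd4-only cells (0.28 and -0.24) and Pclaf in Cd8-only cells (0.18 and -0.10), where the control genotype was the higher one. The ratio of Mki67-positive shares was opposite in all T cells (0.609 and 1.22) and in Cd8-only cells (0.534 and 1.41).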

How the results depend on the processing

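Of 400 recomputed values, 286 kept their direction and size, 80 moved and 34 changed sign. The comparisons between libraries are written here as WT (WT-DOX against WT-CTRL), KO (KO-DOX against KO-CTRL), untreated (KO-CTRL against WT-CTRL) and treated (KO-DOX against WT-DOX), and sums as log2 ratios of the summed member level. Where no cause is named, the cause was not tested. Where no share of all genes stands beside a count of members, that count cannot be set against a background. Depth limits the genes under 5 CPM (Mcm10, Cdc45, Gins1 and E2f1) and the Mki67-positive lineage classes, which held 79 to 164 cells. A stricter barcode filter (800 genes or more, mitochondrial UMIs up to 5%) changed no sign.

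Without the gate on markers, the sums in all T cells were -0.17 (WT), -0.0043 (KO) and 0.16 (untreated), with 4 members lower (WT) and 4 higher (untreated). In Mki67-positive cells the treated sum was -0.022 and its median -0.0079, and in Cd4-only cells the WT sum was 0.044.

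Without possible doublets, the sums in all T cells were -0.11 (WT), -0.0051 (untreated) and 0.14 (treated), and the untreated median was -0.0085. Members past the fold numbered 3 lower (WT, 2.68% of all genes), 1 higher (KO, 0.907%), 0 higher (untreated, 1.41%) and 5 higher (treated, 2.92%). In Mki67-positive cells the sums were -0.18, 0.0043, -0.089 and 0.092, and the medians -0.21 (WT) and -0.081 (untreated). The counts there were 13 lower (WT, 20.1% of all genes) and 6 higher and 3 lower (KO, 16.7% and 15.2%). They were 1 higher and 6 lower (untreated, 17.5% and 15.9%), and 8 higher and 1 lower (treated, 20.8% and 17%). The sum was 0.033 in Cd4-only cells (KO), -0.14 in Cd8-only cells (untreated), 0.15 and 0.17 in Mki67-positive Cd4-only cells (KO and treated), and -0.23 and -0.019 in Mki67-positive Cd8-only cells (untreated and treated).

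With every cell weighted equally, the sums in all T cells were -0.097, 0.056, -0.0039 and 0.15, and the untreated median -0.026. The counts were 4 lower (WT, 2.72% of all genes), 0 higher (untreated, 1.4%) and 6 higher (treated, 3.6%). In Mki67-positive cells the sums were 0.092, -0.085, 0.12 and -0.061, and the treated median -0.039. The counts there were 3 higher (WT, 17.5% of all genes) and 1 higher (KO, 14.3%). They were 4 higher and 2 lower (untreated, 15.9% and 17.1%), and 2 higher and 2 lower (treated, 18.2% and 14.5%). The sum was 0.044 in Cd4-only cells (KO) and -0.045 in Cd8-only cells (untreated).

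With 1 common share of Mki67-positive cells, the sums were 0.059 (WT), -0.079 (KO) and -0.023 (treated), the medians 0.081, -0.055 and -0.017, and the counts 1 lower (WT) and 0 higher (treated). Median-of-ratios scaling gave a treated sum of 0.32 and 1 lower member in Mki67-positive cells (WT). A pseudocount of 5 gave 3 lower members in all T cells and 1 in Mki67-positive cells (WT). A minimum of 1 CPM gave 1 higher member (KO).

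With at least 2 Mki67 UMIs, the Mki67-positive sums were -0.028 (WT, median -0.042) and 0.036 (treated, 2 members higher), and member UMIs for each G2 and M phase UMI were 1.01, 1.04, 1.09 and 1.05 in the order of the libraries. With cells chosen by Mki67 or Top2a, the sums were -0.024 (WT), 0.021 (KO, median 0.023, 1 higher), 0.11 (untreated) and 0.16 (treated, 3 higher).

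In the tests within libraries, the fit without the library block called 37 members higher and 0 lower in Mki67-positive cells, 0 higher and 5 lower in Cd4-only against Cd8-only Mki67-positive cells, and 25 higher and 1 lower in Cd4-only against Cd8-only T cells. Leaving out 1 library at a time called 2 to 10 lower in the lineage contrast of Mki67-positive cells and DESeq2 3. Total counts without TMM, added after the data were seen, called 2 higher and 1 lower there (22.4% and 6.19% of all genes), and 0 lower in all T cells (11.7%).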

Other observations

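The barcodes left out for holding at least 2 UMIs of other-cell markers numbered 95 for WT-CTRL, 88 for WT-DOX, 112 for KO-CTRL and 114 for KO-DOX. Of these, 14.7%, 22.7%, 24.1% and 17.5% held Mki67, and their summed member level was 2640, 3783, 4262 and 3092 CPM, above the level over all T cells in each library. Their median depth was 2980 to 4399 UMIs.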
